A study of Bos taurus with 12 samples.

Results

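The genes described here drive and carry out cell division, and they were followed in the bovine corpus luteum after an injection of prostaglandin F2α (PGF2α), the uterine signal that ends the life of the gland. The 40 genes were taken by symbol from a list of cell cycle and DNA replication genes, and each had to reach 10 rounded counts in at least 4 of the 12 libraries. All 40 did, among 14481 of the 27270 genes in the tables. They were split by role into 11 regulators of G1, 12 genes of DNA replication and 17 genes of mitosis.

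Mixed breed cows, synchronised to day 10 of the luteal phase, received an intramuscular injection of saline (control, n = 4) or of a luteolytic dose of PGF2α, and the treated cows were ovariectomised 4 h (n = 4) or 12 h (n = 4) later. Total RNA of each corpus luteum, a mixture of steroidogenic, endothelial, mural, stromal and immune cells, gave 1 library per cow. All cows had also received PGF2α earlier for synchronisation, controls included. For each gene the deposited tables give an expected count, the estimated number of its reads, and a TPM value, a relative transcript abundance that is scaled to transcript length and lets genes be compared with each other. Cows are named by group and number, and a number does not link cows of different groups.

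In G1, the D-type cyclins CCND1, CCND2 and CCND3 activate the kinases CDK4 and CDK6, which release the E2F transcription factors from the pocket proteins, and the E-type cyclins with CDK2 complete the step into S phase. CDKN1B and CDKN1C are inhibitors of these kinases. In S phase the MCM2 to MCM7 helicase, loaded by CDC6 and CDT1, opens the DNA, PCNA holds the polymerases on it, and TYMS, RRM1 and RRM2 make its building blocks. CDK1 with A- and B-type cyclins then drives mitosis, in which the other genes of that group build the spindle, check the attachment of chromosomes or start the degradation of cyclins. Steroidogenic luteal cells divide little in the mature gland, and dividing cells of the corpus luteum are known to be largely endothelial. In whole tissue, fewer cells of a type and less RNA per cell cannot be told apart.

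Depth and composition of the libraries bear on every value below. Total expected counts ranged from 10263310 to 22600213 per library, and the 40 genes together took 0.0906% to 0.132% of the counts. The share of mitochondrially encoded reads was 8.94% ± 1.51 in the control group and 11.6% ± 3.04 in the 12 h group (SD, n = 4 each). Weighted by TPM, transcripts averaged 1682 ± 41.9 bases in the control group and 1479 ± 69.7 bases in the 12 h group. Between these groups the median log2 change over all tested genes was -0.25 on the log2(TPM + 1) scale, where limma was used as an alternative, and 0.01 in counts scaled by TMM, the main scale. Changes in TPM at 12 h therefore read lower than those in TMM-scaled counts.

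The libraries of 4 cows stood apart in the mitosis genes. Control cow 1 had the highest TPM of its group in 17 of 17 mitosis genes. In the 4 h group cow 1 had the highest value of all 17, and in 4 h cow 3 all 17 were the lowest of their group, and in 12 h cow 2 all 17 mitosis genes and all 12 replication genes were the highest. The 12 h cow 2 also had 7.22% mitochondrially encoded counts, where the other 12 h cows had 12.4% to 14.1%, and the highest summed TPM of 10 pericyte and smooth muscle markers (5204, with 931 to 1739 in the other 12 h cows). Counts of the 40 genes against control are given also without 4 h cow 3 and 12 h cow 2 where this changes them. For the mitosis genes this setting removes the highest 12 h cow and the lowest 4 h cow and keeps control cow 1, the highest control. It therefore enlarges their falls at 12 h by its choice of cows, and it is no separate support for them.

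Against controls, 1 of the 40 genes rose and 4 fell at 4 h, where 14.2% of all 14481 tested genes were called, 8.65% as higher and 5.59% as lower. At 12 h 3 rose and 12 fell, where 48.9% of all genes were called, 23.6% as higher and 25.3% as lower. Between 4 h and 12 h 7 rose and 8 fell, where 46.7% were called, 22.5% as higher and 24.3% as lower. The share that fell at 12 h is near that of all genes, and the share that rose is lower. The median log2 fold change of the 40 genes was -0.21 at 4 h and -0.20 at 12 h, beside -0.03 and 0.01 over all genes. Without 4 h cow 3 the median at 4 h was -0.09, and without control cow 1 it was -0.10 at 4 h and -0.06 at 12 h. The count that fell at 12 h depended on single cows. It was 6 without control cow 1, 5 without control cow 4, 7 without 12 h cow 3, 14 without 12 h cow 2 and 16 without 4 h cow 3 and 12 h cow 2. The 1 rise at 4 h was not called without control cow 4 or without 4 h cow 1. The changes at 4 h and at 12 h share the same 4 control cows.

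**Figure D1:**
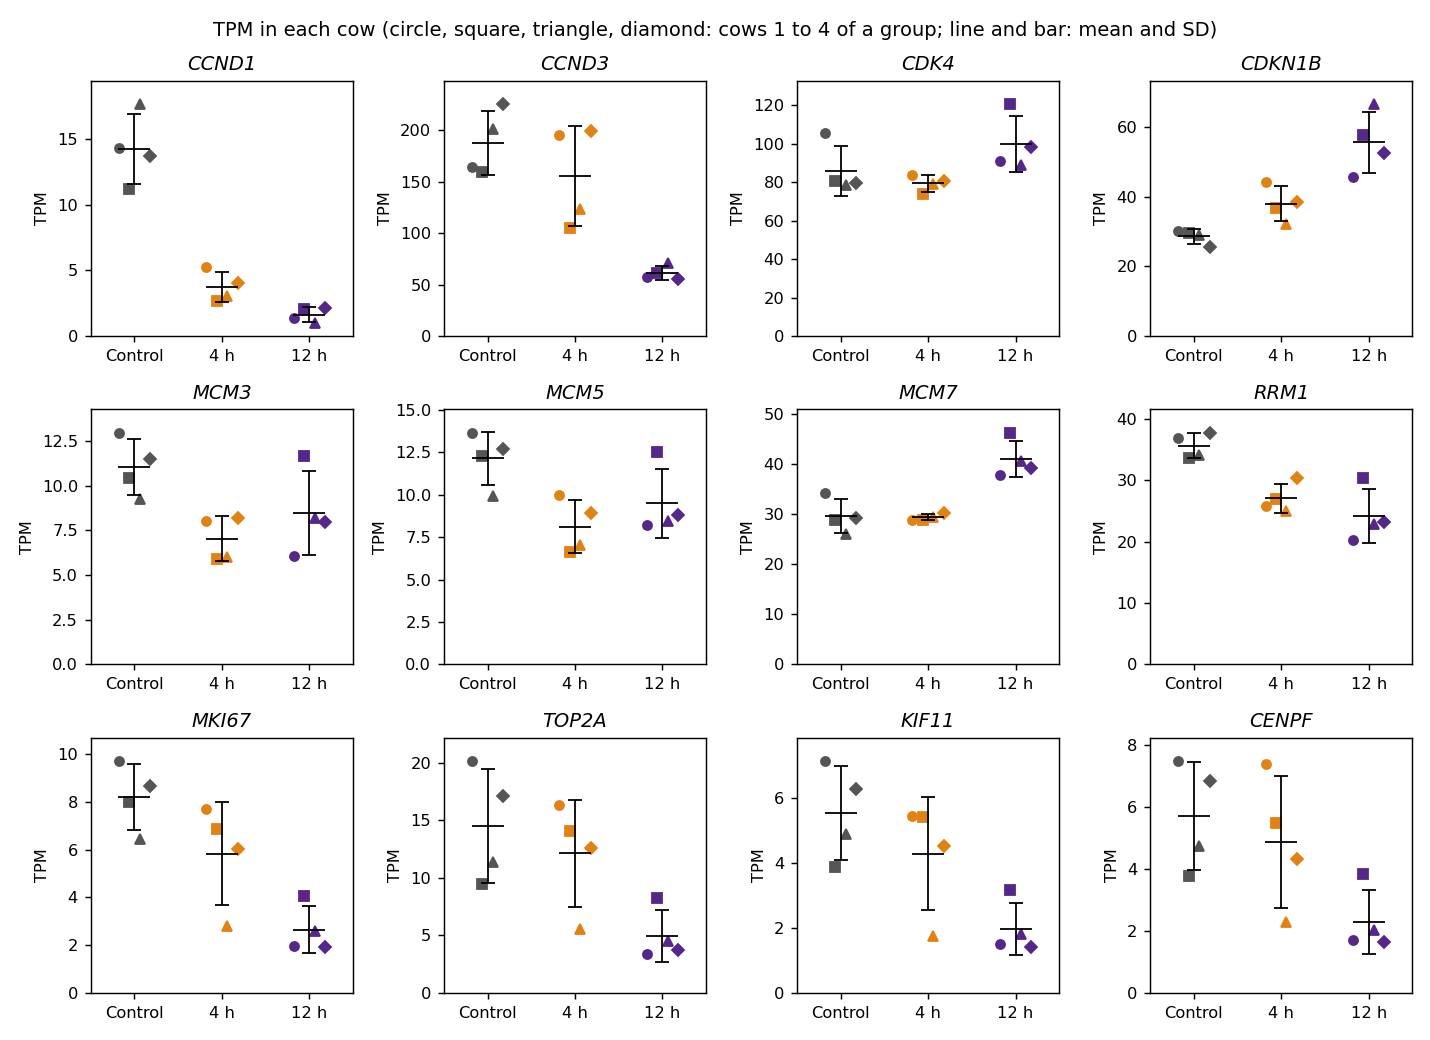
TPM of 12 genes (y axis, from 0) in each cow of the control, 4 h and 12 h groups (x axis), with 4 genes each of G1, DNA replication and mitosis from top to bottom. Symbols are the 4 cows of a group, and lines with bars are the mean and SD. CCND1 is below all controls in all 8 treated cows, and 12 h cow 2 (square) is the highest 12 h cow for all of the MCM and mitosis genes shown.

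Among the G1 regulators, the D-type cyclins parted from one another. CCND1 fell at 4 h and further by 12 h, CCND3 fell by 12 h, and CCND2 passed no test, while the inhibitor CDKN1B rose at both times. Of the 11 genes, 1 rose and 1 fell at 4 h (9.09% each), beside 8.65% and 5.59% of all genes. At 12 h 2 rose and 3 fell (18.2% and 27.3%), near the 23.6% and 25.3% of all genes. In TPM these genes span a wide range, from a control mean of 3.48 for CDK6 to 188 for CCND3.

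CCND1, the cyclin that links growth factor signals to CDK4 and CDK6, lies on chromosome 29 (46888863 to 46898541 in the build ARS-UCD 1.2). Its TPM was 14.3, 11.2, 17.7 and 13.7 in control cows 1 to 4, 5.23, 2.67, 3.05 and 4.01 in the 4 h cows, and 1.37, 2.09, 0.98 and 2.10 in the 12 h cows. All 4 h cows lay below all controls, and all 12 h cows lay below all 4 h cows. Its log2 fold change in counts scaled by TMM was -1.90 at 4 h (SE 0.25, edgeR adjusted p = 5.58e-04) and -2.83 at 12 h (SE 0.27, edgeR adjusted p = 1.40e-05). The step from 4 h to 12 h was -0.92 (SE 0.27, edgeR adjusted p = 0.0145), and it was not called without 4 h cow 1 (adjusted p = 0.0512). Both falls against control were called in all 22 alternative analyses. The 12 h libraries held 14 to 33 rounded counts of the gene, and the control libraries 118 to 272. The whole of CCND1 lies within the annotated span of LTO1, whose log2 fold change at 12 h was -0.16.

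CCND3, the most abundant of the D-type cyclins, did not change detectably at 4 h. Its TPM was 165, 159, 201 and 225 in the controls, 195, 105, 123 and 199 at 4 h, and 57.0, 61.4, 70.5 and 55.0 at 12 h. The 12 h cows lay below all other cows, and the 4 h cows overlapped the controls. CCND3 stood at a log2 fold change of -0.25 at 4 h (SE 0.19, edgeR adjusted p = 0.425), -1.31 at 12 h (SE 0.20, edgeR adjusted p = 2.00e-04) and -1.06 from 4 h to 12 h (SE 0.19, edgeR adjusted p = 8.73e-04). The gene lies on chromosome 23, from 15698661 to 15705476.

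CCND2 had a TPM of 8.33, 7.20, 5.77 and 8.23 in the controls, 7.72, 7.37, 5.11 and 7.81 at 4 h, and 4.27, 10.3, 5.65 and 4.96 at 12 h. The groups overlap, and the highest 12 h value belongs to cow 2. Its log2 fold change was -0.04 at 4 h and 0.05 at 12 h (SE 0.21 each), and neither passed the test.

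CDKN1B, whose product binds and blocks the CDK2 complexes, rose in steps. Its TPM was 30.1, 29.7, 28.9 and 25.5 in the controls, 44.3, 36.7, 32.2 and 38.5 at 4 h, and 45.7, 57.7, 66.5 and 52.7 at 12 h. No cow of a later group overlapped a cow of an earlier one. CDKN1B changed by 0.44 on the log2 scale at 4 h (SE 0.11, edgeR adjusted p = 0.0244), 1.27 at 12 h (SE 0.12, edgeR adjusted p = 1.08e-05) and 0.83 from 4 h to 12 h (SE 0.11, edgeR adjusted p = 1.32e-04). At 12 h the mean TPM was 1.95 times that of controls. The rise at 4 h was lost with limma on log2(TPM + 1), without control cow 4 and without 4 h cow 1. The gene lies on chromosome 5, from 97104351 to 97109627.

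CDKN1C, a relative of CDKN1B, varied widely between cows and passed no test. Its TPM was 124, 123, 177 and 115 in the controls, 67.3, 122, 199 and 90.0 at 4 h, and 156, 57.2, 110 and 102 at 12 h. Its log2 fold change was -0.13 at 4 h and 0.00 at 12 h, with an SE of 0.38 for both.

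The partner kinases of the D-type cyclins moved in opposite directions at 12 h. CDK4 had a TPM of 106, 80.4, 78.5 and 79.4 in the controls, 83.8, 73.6, 79.3 and 80.9 at 4 h, and 91.1, 121, 88.8 and 98.5 at 12 h. The 12 h cows lay above all 4 h cows and overlapped the controls through control cow 1. In TMM-scaled counts CDK4 rose at 12 h by 0.53 on the log2 scale (SE 0.09, edgeR adjusted p = 4.66e-04), and on the log2(TPM + 1) scale, whose median had shifted, that rise was not called. CDK6 had a TPM of 2.78, 3.39, 3.45 and 4.28 in the controls, 3.89, 3.37, 1.94 and 4.33 at 4 h, and 1.77, 2.26, 0.89 and 1.08 at 12 h. All 12 h cows lay below all controls. It fell by 0.89 on the log2 scale at 12 h (SE 0.30, edgeR adjusted p = 0.0271), a call lost without control cow 3 or 4 and without 12 h cow 3 or 4. CDK4 shares 431 bases with TSPAN31, whose log2 fold change at 12 h was -0.07.

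The remaining G1 genes, the E-type cyclins, CDK2 and the transcription factor E2F1, passed no test at either time. CCNE2 came closest at 4 h. All 4 of its 4 h cows (3.95 to 5.96 TPM) lay below all 4 controls (6.65 to 9.45 TPM), with a log2 fold change of -0.65 (SE 0.26, edgeR adjusted p = 0.123), and at 12 h its value was 0.02 (SE 0.26). CCNE1 stood at 0.37 at 12 h (SE 0.16, edgeR adjusted p = 0.081). CDK2 ranged from 10.8 to 19.1 TPM and E2F1 from 3.05 to 6.0 TPM over all 12 cows.

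**Figure D2:**
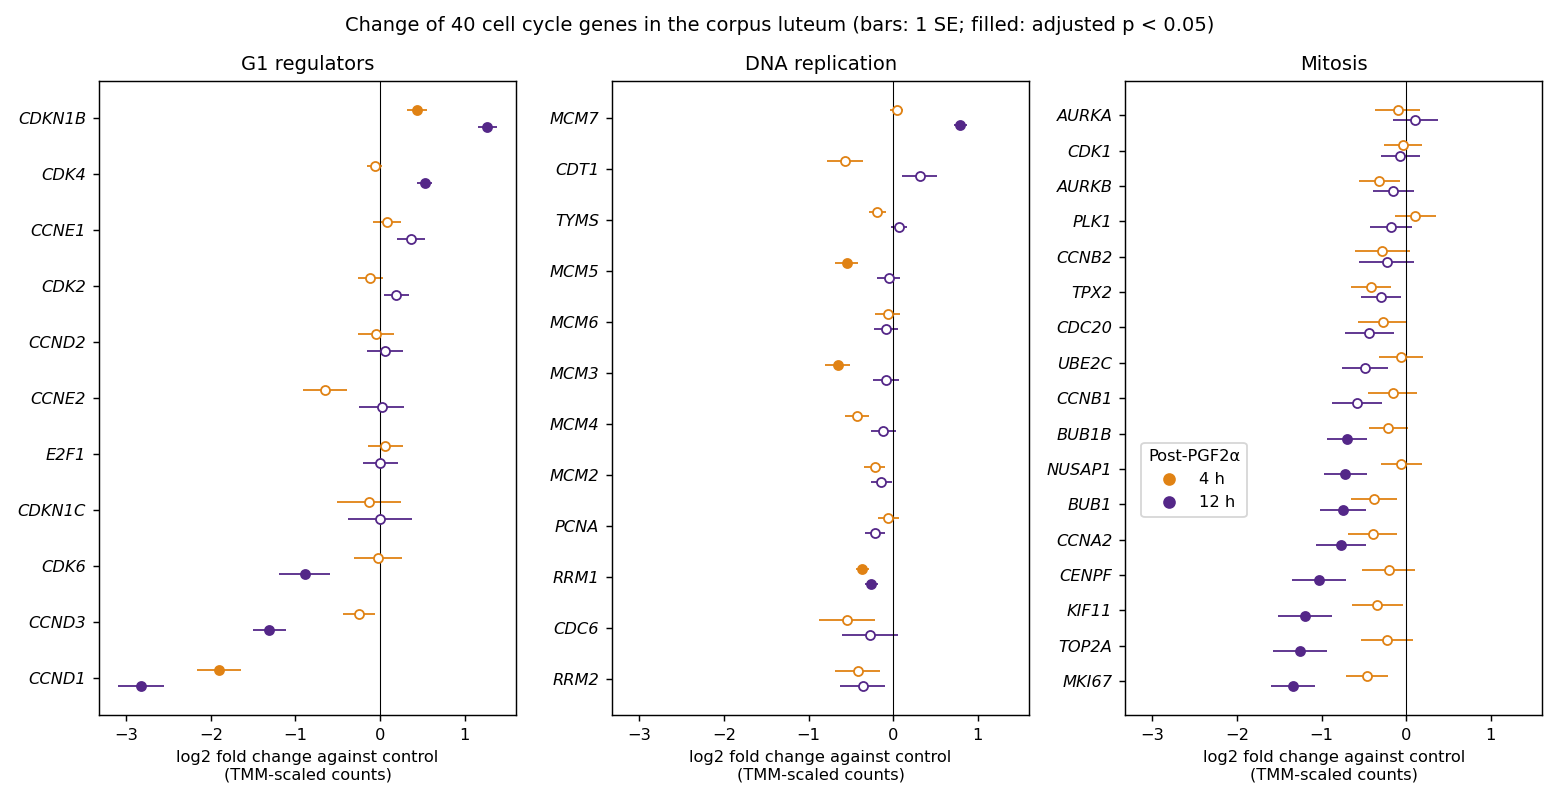
Log2 fold change against control in TMM-scaled counts (x axis) of each of the 40 genes (y axis), split by role, at 4 h and 12 h post-PGF2α; bars are 1 SE and filled points have an edgeR adjusted p below 0.05. CCND1 falls by 1.90 and 2.83, 11 of 12 replication genes are below 0 at 4 h, and 16 of 17 mitosis genes are below 0 at 12 h.

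In TMM-scaled counts more replication genes fell at 4 h than at 12 h, while their summed TPM was 0.847 times control at 4 h and 0.818 times at 12 h. At 4 h, MCM3, MCM5 and RRM1 fell (25% of the 12, beside 5.59% of all genes) and none rose. Of the 12, 11 had a negative log2 fold change, with a median of -0.39 beside -0.03 over all genes. At 12 h MCM7 rose and RRM1 fell (8.33% each), beside 23.6% and 25.3% of all genes, and the median was -0.10. Without 4 h cow 3 and 12 h cow 2, 1 rose and 2 fell at 12 h, with a median of -0.23. PCNA and MCM6 had lower values at 12 h than at 4 h in the main scale as well, without passing the test. From 4 h to 12 h 5 of the 12 rose (41.7%) and none fell in edgeR, where 22.5% of all genes rose and 24.3% fell. In the same comparison limma on log2(TPM + 1) called 1 rise and 1 fall, on a scale where the median over all genes was -0.21. At 4 h 5 of the 12 had an unadjusted p below 0.05 in edgeR, where 4250 of all 14481 tested genes did. DESeq2 called 4 falls and no rise at 4 h. From 4 h to 12 h 6 of the 12 had an unadjusted p below 0.05 in edgeR, where 7876 of all 14481 did, a share not above that of all genes. DESeq2 called 4 rises and no fall in that comparison.

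MCM3 and MCM5 are subunits of the MCM helicase. MCM3 had a TPM of 13.0, 10.4, 9.27 and 11.5 in the controls, 8.05, 5.91, 5.99 and 8.21 at 4 h, and 6.07, 11.7, 8.17 and 7.96 at 12 h. All 4 h cows lay below all controls, while the 12 h cows overlapped both groups. Its log2 fold change was -0.66 at 4 h (SE 0.15, edgeR adjusted p = 0.0136) and -0.09 at 12 h (SE 0.15, edgeR adjusted p = 0.657). MCM5 had a TPM of 13.7, 12.3, 9.92 and 12.7 in the controls, 9.96, 6.60, 7.02 and 8.92 at 4 h, and 8.21, 12.5, 8.48 and 8.79 at 12 h. The 4 h cow 1 lay just inside the control range, and 12 h cow 2 was the only 12 h cow within the control range. Its log2 fold change was -0.55 at 4 h (SE 0.13, edgeR adjusted p = 0.019) and -0.05 at 12 h (SE 0.13, edgeR adjusted p = 0.767), and the fall at 4 h was lost without control cow 4 or 4 h cow 2. Both falls at 4 h were also lost with limma on log2(TPM + 1).

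RRM1 encodes the large subunit of ribonucleotide reductase, which makes deoxyribonucleotides. Its TPM was 36.9, 33.7, 34.1 and 37.7 in the controls, 25.9, 27.0, 25.02 and 30.4 at 4 h, and 20.2, 30.4, 22.8 and 23.3 at 12 h. All treated cows lay below all controls. RRM1 changed by -0.36 on the log2 scale at 4 h (SE 0.08, edgeR adjusted p = 0.0112) and -0.26 at 12 h (SE 0.08, edgeR adjusted p = 0.0192). The fall at 4 h was lost with limma on log2(TPM + 1), and that at 12 h was lost without control cow 1, without control cow 4 and with an offset for transcript length.

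MCM7 alone of the 12 rose against control. Its TPM was 34.2, 28.8, 26.1 and 29.4 in the controls, 28.9, 29.0, 29.5 and 30.3 at 4 h, and 37.9, 46.3, 40.7 and 39.3 at 12 h. The 12 h cows lay above all other cows. MCM7 stood at a log2 fold change of 0.04 at 4 h (SE 0.08), 0.79 at 12 h (SE 0.08, edgeR adjusted p = 1.36e-05) and 0.75 from 4 h to 12 h (SE 0.08, edgeR adjusted p = 2.32e-05), and the rise at 12 h was called in all 22 alternatives. MCM7 lies on chromosome 25 from 36349409 to 36356836 and shares 380 bases with AP4M1, whose log2 fold change at 12 h was 0.75. Whether the counting used strand is not given in the sources used here, so reads of the shared bases cannot be assigned to either gene.

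The other subunits of the helicase had no such rise. MCM2 had a TPM of 17.1, 13.3, 11.6 and 13.5 in the controls, 12.7, 11.5, 10.0 and 12.4 at 4 h, and 7.92, 14.0, 8.90 and 10.1 at 12 h, and its log2 fold changes of -0.22 and -0.14 (SE 0.12 and 0.13) did not pass the test. MCM4 stood at -0.43 at 4 h (SE 0.14, edgeR adjusted p = 0.0659) and -0.12 at 12 h. MCM6 stood at -0.06 and -0.08.

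PCNA, a common proliferation marker, did not pass the test at either time. Its TPM was 59.2, 65.4, 39.7 and 52.7 in the controls, 53.1, 51.6, 46.5 and 52.4 at 4 h, and 31.2, 43.8, 39.0 and 37.3 at 12 h. The 12 h cows lay below all 4 h cows and overlapped the controls through control cow 3. The log2 fold change was -0.06 at 4 h and -0.22 at 12 h (SE 0.12 each), and limma on log2(TPM + 1) called a fall at 12 h of -0.50 (adjusted p = 0.0121).

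CDT1 and CDC6 load the helicase onto origins. CDT1 was at 2.43 to 4.23 TPM in the controls, 1.60 to 2.51 at 4 h and 2.62 to 4.00 at 12 h, and it rose between 4 h and 12 h by 0.88 on the log2 scale (SE 0.21, edgeR adjusted p = 0.00506). CDC6 was the least abundant of the 40, at 0.46 to 1.68 TPM with 17 to 69 rounded counts per library. It passed no test, and 2303 bases of it overlap WIPF2. RRM2 and TYMS passed no test against control. From 4 h to 12 h, MCM3 rose by 0.57 (SE 0.15, edgeR adjusted p = 0.0084), MCM5 by 0.49 (SE 0.14, edgeR adjusted p = 0.00992) and TYMS by 0.26 (SE 0.10, edgeR adjusted p = 0.0487). Without 4 h cow 3 and 12 h cow 2, 2 of the 5 rises, MCM7 and CDT1, were called, and with limma on log2(TPM + 1) MCM7 was called and PCNA fell.

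None of the 17 mitosis genes passed the test at 4 h, where 5.59% of all genes fell. At 12 h 8 fell (47.1%), where 25.3% of all genes fell. At 4 h no mitosis gene passed the adjusted threshold in edgeR or in DESeq2. None had an unadjusted p below 0.05 in edgeR, where 4250 of all 14481 genes did, while 16 of 17 values were negative (median -0.23). Without 4 h cow 3 this median was -0.02, and without control cow 1 it was -0.06. At 12 h 16 of 17 were negative again with a median of -0.59, beside 0.01 over all genes, and MKI67, TOP2A, KIF11, CENPF, CCNA2, BUB1, NUSAP1 and BUB1B fell. The count of 8 was 3 without control cow 1, 3 without control cow 4, 4 without 12 h cow 1, 4 without 12 h cow 3 and 5 without 12 h cow 4. It was 11 without 4 h cow 3 and 12 h cow 2.

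MKI67 encodes the Ki-67 antigen of dividing cells, at 47507654 to 47537887 of chromosome 26. Its TPM was 9.71, 8.0, 6.45 and 8.66 in the controls, 7.69, 6.86, 2.79 and 6.01 at 4 h, and 1.98, 4.08, 2.61 and 1.94 at 12 h. All 12 h cows lay below all controls, and 4 h cow 3 was the only 4 h cow in the range of the 12 h group. MKI67 stood at a log2 fold change of -0.47 at 4 h (SE 0.25, edgeR adjusted p = 0.241) and -1.34 at 12 h (SE 0.26, edgeR adjusted p = 0.00109).

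TOP2A, the topoisomerase that untangles replicated chromosomes, and KIF11, the motor that separates the spindle poles, followed the same course. TOP2A had a TPM of 20.2, 9.43, 11.4 and 17.1 in the controls, 16.4, 14.1, 5.52 and 12.6 at 4 h, and 3.35, 8.26, 4.54 and 3.75 at 12 h. KIF11 had a TPM of 7.12, 3.86, 4.87 and 6.27 in the controls, 5.45, 5.39, 1.76 and 4.50 at 4 h, and 1.51, 3.15, 1.80 and 1.40 at 12 h. For both genes the 12 h cows lay below all controls. The log2 fold change at 12 h was -1.26 for TOP2A (SE 0.32, edgeR adjusted p = 0.00635). For KIF11 it was -1.20 (SE 0.32, edgeR adjusted p = 0.00782). The falls of MKI67, TOP2A and KIF11 at 12 h were called in all 22 alternatives.

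The falls of the other 5 mitosis genes were less stable. CENPF, a kinetochore protein, had a TPM of 7.49, 3.77, 4.76 and 6.86 in the controls, 7.39, 5.50, 2.30 and 4.32 at 4 h, and 1.72, 3.83, 2.02 and 1.63 at 12 h. Only 12 h cow 2 reached into the control range. Its log2 fold change at 12 h was -1.04 (SE 0.32, edgeR adjusted p = 0.0176), lost without control cow 1 or control cow 4. BUB1B, a kinase-like protein of the spindle checkpoint, had a TPM of 7.71, 4.83, 4.8 and 7.36 in the controls, 6.77, 6.0, 2.82 and 5.26 at 4 h, and 2.33, 4.06, 2.66 and 3.26 at 12 h. It fell by 0.70 on the log2 scale at 12 h (SE 0.24, edgeR adjusted p = 0.0284), a call lost without control cow 1 or 4 and without 12 h cow 1 or 3. NUSAP1, which bundles spindle microtubules, had a TPM of 10.6, 6.0, 7.28 and 8.36 in the controls, 9.68, 8.08, 4.15 and 8.36 at 4 h, and 3.06, 6.31, 3.52 and 3.04 at 12 h. It fell by 0.72 at 12 h (SE 0.25, edgeR adjusted p = 0.0311), a call lost without control cow 1 or 4 and without 12 h cow 1, 3 or 4. BUB1 (-0.75, edgeR adjusted p = 0.0393) and CCNA2 (-0.77, edgeR adjusted p = 0.0473) were each lost in 10 of the 22 alternatives.

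The engine of mitosis itself did not pass the test. CDK1 stood at a log2 fold change of -0.07 at 12 h (SE 0.23), its partner CCNB2 at -0.23 (SE 0.33) and CCNB1 at -0.59 (SE 0.29, edgeR adjusted p = 0.117). The mitotic kinases AURKA, AURKB and PLK1 stood between -0.18 and 0.10. The ubiquitin ligase activator CDC20, the spindle factor TPX2 and the ubiquitin-conjugating enzyme UBE2C stood at -0.44, -0.30 and -0.49. Without 4 h cow 3 and 12 h cow 2, CCNB1 (-0.90, edgeR adjusted p = 0.00584), UBE2C (-0.75, edgeR adjusted p = 0.0346) and TPX2 (-0.50, edgeR adjusted p = 0.0469) were called as well, and CDK1 was not (-0.21, edgeR adjusted p = 0.404). These added calls follow the removal of the highest 12 h value of each gene, while the highest control value was kept.

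The direct comparison of 12 h with 4 h called 5 of the 17 mitosis genes (29.4%) as lower at 12 h, a share near the 24.3% of all genes that fell in this comparison. These were TOP2A (-1.03, SE 0.32, edgeR adjusted p = 0.0189), MKI67 (-0.87, SE 0.26, edgeR adjusted p = 0.0144), KIF11 (-0.85, SE 0.32, edgeR adjusted p = 0.0415), CENPF (-0.83, SE 0.32, edgeR adjusted p = 0.0486) and NUSAP1 (-0.66, SE 0.25, edgeR adjusted p = 0.0455). The count was 0 without 4 h cow 1, 1 without 4 h cow 2, 2 without any of 4 h cow 4, 12 h cows 1, 3 and 4 and control cows 3 and 4, and 11 without 4 h cow 3 and 12 h cow 2. In TPM the groups overlapped for all 17 genes.

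The falls at 12 h were larger in longer transcripts. Across the 17 mitosis genes, Spearman's rho between the log2 fold change at 12 h and the effective transcript length was -0.70, a description over genes of the same libraries. Across all 14481 genes it was -0.21, and the median log2 fold change at 12 h went from 0.29 for transcripts under 1000 bases to -0.53 for those of 10000 bases or more. MKI67 (effective length 11640 bases) and CENPF (10560 bases) are among these longest transcripts, where 56.3% of all genes fell. When the trend of each library with length was taken out by an offset in the fit, rho was -0.37 over the 17 genes and -0.02 over all genes. With this offset the median log2 fold change at 12 h was -0.54 over the 17 genes and 0.04 over all genes. Of all genes 24.0% rose and 22.8% fell at 12 h, and 4 of the 17 fell, a share near that of all genes. They were MKI67 (-0.80, SE 0.22, edgeR adjusted p = 0.0113), TOP2A (-0.99, SE 0.29, edgeR adjusted p = 0.0145), KIF11 (-1.0, SE 0.29, edgeR adjusted p = 0.0144) and CCNA2 (-0.82, SE 0.31, edgeR adjusted p = 0.0428). CENPF stood at -0.52 (edgeR adjusted p = 0.141), and no mitosis gene was called between 12 h and 4 h. CCND1, CCND3 and CDKN1B kept log2 fold changes of -2.92, -1.34 and 1.32 at 12 h, and MCM7 one of 0.84.

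**Figure D3:**
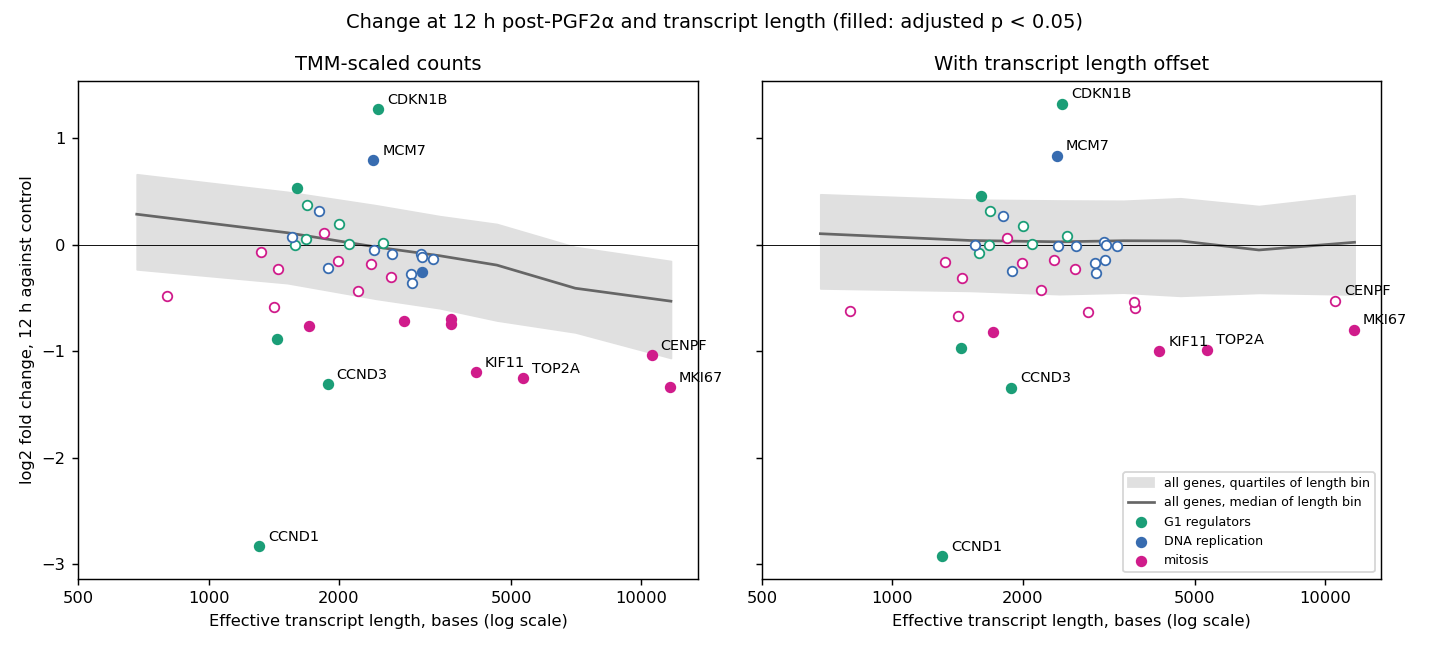
Log2 fold change at 12 h against control (y axis) by effective transcript length in bases (x axis, log scale) for the 40 genes, in TMM-scaled counts (left) and with the length offset (right). The line and band are the median and quartiles of all genes by length bin, and filled points have an edgeR adjusted p below 0.05. The median of all genes slopes from 0.29 to -0.53 on the left and is near 0 on the right. There 4 of 17 mitosis genes, MKI67, TOP2A, KIF11 and CCNA2, lie below 0 as filled points, a share near the 22.8% of all genes.

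In all, TPM did not overlap with controls for 1 gene above and 4 below at 4 h, and for 2 above and 9 below at 12 h. Over all genes, 8.31% lay above and 10.7% below at 4 h, and 9.12% lay above and 34.9% below at 12 h. The 9 genes below at 12 h were CCND1, CCND3, CDK6, RRM1, MKI67, TOP2A, KIF11, BUB1 and BUB1B, and the 2 above were CDKN1B and MCM7. Of the 12 h cows against the 4 h cows, 4 genes lay above and 3 below without overlap, where 8.62% of all genes lay above and 30.3% below.

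Summed TPM gave the course of each role group in single cows. The 17 mitosis genes summed to 205, 117, 114 and 152 in the controls, 158, 131, 71.4 and 127 at 4 h, and 61.8, 126, 72.3 and 62.6 at 12 h. The 12 h mean was 0.549 times the control mean, and 0.446 without 12 h cow 2. The replication genes summed to 265, 237, 203 and 241 in the controls, 215, 193, 176 and 217 at 4 h, and 160, 240, 192 and 182 at 12 h. Their ratio to control was 0.847 at 4 h and 0.818 at 12 h in TPM, and at 12 h it was 1.0 in TMM-scaled CPM. The G1 sum, led by CCND3, CDKN1C and CDK4, had a ratio of 0.731 at 12 h in TPM and 0.929 in CPM.

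Markers of other cells were read beside these sums. The 12 endothelial markers, all detected in every library, summed to 839, 545, 551 and 643 TPM in the controls, 806, 677, 590 and 889 at 4 h, and 503, 945, 518 and 464 at 12 h. The cows with the highest mitosis sum in the control and 12 h groups, control cow 1 and 12 h cow 2, also had the highest endothelial sum of their group, and 4 h cow 3 had the lowest of both. In the 4 h group the highest mitosis sum was that of cow 1 and the highest endothelial sum that of cow 4. Control cow 1 and 12 h cow 2 also had the highest sums of their groups for fibroblast markers (20646 and 19274 TPM) and for pericyte and smooth muscle markers (2107 and 5204 TPM). In the edgeR test 2 of the 12 endothelial markers rose and 2 fell at 4 h (16.7% each), beside 8.65% and 5.59% of all genes. At 12 h 3 of the 12 rose and 1 fell (25% and 8.33%), beside 23.6% and 25.3% of all genes. Per 100 TPM of endothelial markers, the mitosis genes stood at 24.4, 21.5, 20.7 and 23.7 TPM in the controls, 19.7, 19.4, 12.1 and 14.3 at 4 h, and 12.3, 13.4, 14.0 and 13.5 at 12 h. On this scale, chosen after the values were seen and given with no test, 12 h cow 2 lay within the range of the other 12 h cows. All treated cows lay below all controls on it. At 4 h the mitosis sums themselves overlapped the controls, and the mean endothelial sum was 1.15 times control, which lowers the 4 h values on this scale. Per 100 TPM of endothelial markers the replication genes stood at 31.5 to 43.5 in the controls, 24.4 to 29.8 at 4 h and 25.4 to 39.1 at 12 h.

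Per 100 TPM of fibroblast markers the mitosis genes stood at 0.991 to 1.68 in the controls, 0.892 to 1.64 at 4 h and 0.492 to 0.919 at 12 h. Per 100 TPM of pericyte and smooth muscle markers they stood at 9.71 to 16.6, 3.56 to 15.1 and 2.42 to 6.63, and per 100 TPM of macrophage and monocyte markers at 13.5 to 68.8, 19.7 to 44.2 and 7.87 to 12.3. Per 100 TPM of luteal steroidogenic genes they stood at 0.662, 0.322, 0.237 and 0.352 in the controls (mean 0.393) and 0.245 to 0.466 at 4 h. At 12 h they stood at 0.228, 0.854, 0.311 and 0.251 (mean 0.411). That 12 h mean rests on cow 2, and the other 12 h cows lay under the control mean but overlapped the controls. Whether the 12 h cows lay apart from all controls therefore depended on the markers used.

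At 4 h, when MCM3, MCM5 and RRM1 fell, most T and NK lymphocyte markers had negative values, and their part in these falls was not tested. Their summed TPM was 60.0, 142, 37.4 and 58.1 in the controls, 30.6 to 44.9 at 4 h and 79.5 to 154 at 12 h. The 4 h mean was 0.512 times that of controls, a ratio made lower by control cow 2. The medians were 59.0 in the controls and 38.4 at 4 h. At 4 h 11 of the 12 had a negative log2 fold change (median -1.05). Of the 12, 9 had an unadjusted p below 0.05 in edgeR, where 4250 of all 14481 tested genes did. After adjustment 1 of the 12 fell (8.33%, beside 5.59% of all genes). At 12 h, 8 of 12 macrophage and monocyte markers, 6 of 9 neutrophil markers and 4 of 10 fibroblast markers rose, where 23.6% of all genes rose. The rises of 2 of 12 T and NK lymphocyte markers (16.7%) and 2 of 10 pericyte markers (20%) were not above that share. Of the T and NK lymphocyte markers 9 of the 12 were negative, with a median of -0.36. Among pericyte markers 1 fell, and 6 of 8 steroidogenic genes of luteal cells fell, where 25.3% of all genes fell. Summed macrophage and monocyte markers were at 297 to 864 TPM in the controls and 665 to 1024 TPM at 12 h. The part of a changed cell mixture in the changes of the cell cycle genes was not tested.

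**Figure D4:**
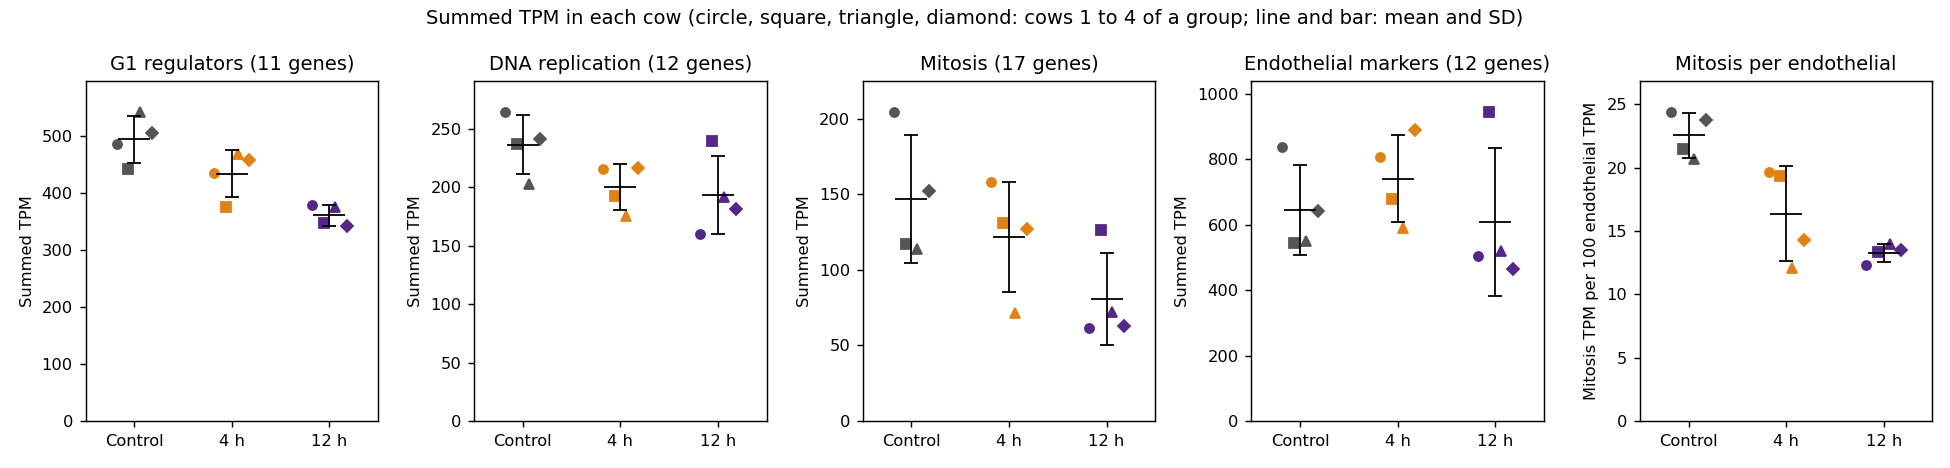
Summed TPM (y axis, from 0) of the G1, replication and mitosis genes and of 12 endothelial markers in each cow, and the mitosis sum per 100 TPM of endothelial markers, in the control, 4 h and 12 h groups (x axis); lines with bars are the mean and SD. The mitosis sum of 12 h cow 2 is 126 where the other 12 h cows are at 61.8 to 72.3, and per 100 endothelial TPM the 12 h cows stand at 12.3 to 14.0 and the controls at 20.7 to 24.4.

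Other genes of the same pathways, from 3 lists that hold none of the 40, were read in the same fit. Of 25 other G1 genes 2 rose and 3 fell at 4 h (8% and 12%), beside 8.65% and 5.59% of all genes. At 12 h 5 rose and 6 fell (20% and 24%), near the 23.6% and 25.3% of all genes. CDKN1A, a CDK inhibitor of the CDKN1B family that p53 induces, had a TPM of 43.9, 56.9, 76.6 and 84.7 in the controls, 275, 440, 343 and 363 at 4 h, and 141, 103, 107 and 121 at 12 h. Each treated group lay above the controls and the 4 h cows lay above the 12 h cows. CDKN1A rose at 4 h by 2.47 on the log2 scale (SE 0.24, edgeR adjusted p = 5.74e-05) and stood at 1.17 at 12 h (SE 0.23, edgeR adjusted p = 0.00121), so that the inhibitors CDKN1A and CDKN1B were highest at different times.

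RBL1, a pocket protein that holds E2F factors, fell by 0.90 at 4 h (SE 0.15, edgeR adjusted p = 0.00253) and by 1.36 at 12 h (SE 0.16, edgeR adjusted p = 3.80e-05). E2F2, an activating E2F factor, stood at 1.68 to 6.84 TPM in the controls, 0.61 to 1.25 at 4 h and 0.49 to 1.49 at 12 h. It fell by 2.09 at 4 h (SE 0.45, edgeR adjusted p = 0.0094) and by 1.72 at 12 h (SE 0.44, edgeR adjusted p = 0.00672). CCNG2, a cyclin of cells that leave the cycle, rose at both times (0.88 and 0.82, edgeR adjusted p = 0.00908 and 0.00332). E2F4 and LIN54, members of complexes that repress cell cycle genes in resting cells, fell at 12 h (-0.47 and -0.61).

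Of 42 other replication genes 2 rose and 6 fell at 4 h (4.76% and 14.3%), beside 8.65% and 5.59% of all genes. At 12 h 12 rose and 12 fell (28.6% each), near the 23.6% and 25.3% of all genes. From 4 h to 12 h 21 rose and 5 fell (50% and 11.9%), beside 22.5% and 24.3% of all genes. Without 4 h cow 3 and 12 h cow 2, 10 rose and 13 fell at 12 h, and 17 rose and 6 fell from 4 h to 12 h. On log2(TPM + 1) 2 of them rose and 18 fell at 12 h, and 6 rose and 6 fell from 4 h to 12 h. On that scale their median was -0.15 at 12 h and 0.04 from 4 h to 12 h, beside -0.25 and -0.21 over all genes. The share of all genes called on that scale is not given here, so these counts have no such share beside them. FEN1, the flap nuclease of lagging strand synthesis, fell by 0.84 at 4 h (SE 0.12, edgeR adjusted p = 7.44e-04), and the origin subunit gene ORC5 fell by 0.76 and the chromatin assembly gene CHAF1A by 0.65. GINS4, a subunit of the replicative helicase, stood at 2.76 to 4.33 TPM in the controls, 3.42 to 5.99 at 4 h and 8.93 to 12.6 at 12 h, a rise of 1.79 at 12 h (SE 0.21, edgeR adjusted p = 3.77e-05). TIMELESS, which steadies replication forks, rose at both times (0.53 and 0.79). The polymerase, clamp loader and single-strand binding genes POLA1, RFC1 and RPA1 fell at 12 h (-0.77, -0.80 and -0.91).

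Of 45 other mitosis genes 1 rose and none fell at 4 h, where 8.65% of all genes rose and 5.59% fell. At 12 h none rose and 13 fell in edgeR, where 28.9% of these genes and 25.3% of all genes fell. At an unadjusted p below 0.05 in edgeR these genes were 5 at 4 h and 18 at 12 h in either direction. Of all 14481 tested genes 4250 and 8049 were, so both shares of the 45 were lower than those of all genes. DESeq2 called no fall at 4 h and 1 rise at 12 h. The 13 falls at 12 h were 8 without control cow 1, 7 without control cow 4, and 22 without 4 h cow 3 and 12 h cow 2. KNL1, a kinetochore scaffold, fell by 1.96 at 12 h (SE 0.32, edgeR adjusted p = 4.04e-04), from 1.56 to 2.38 TPM in the controls to 0.30 to 0.72 TPM. The condensin subunit SMC2 fell by 1.47 (SE 0.21, edgeR adjusted p = 1.36e-04), the checkpoint kinase gene TTK by 1.16 and the separase gene ESPL1 by 1.11. HMMR, a spindle-associated protein, and CDCA5, a regulator of cohesin, fell by 0.71 and 0.92 at 12 h.

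PRC1, which bundles microtubules of the central spindle, was the rise at 4 h. Its TPM was 15.5, 7.0, 11.5 and 11.8 in the controls, 28.5, 23.2, 15.2 and 26.1 at 4 h, and 6.04, 10.4, 5.82 and 6.13 at 12 h. In 3 of the 4 h cows it lay above all controls, and 4 h cow 3 lay within their range. PRC1 rose at 4 h by 1.08 on the log2 scale (SE 0.22, edgeR adjusted p = 0.0069) and fell between 4 h and 12 h by 1.42 (SE 0.22, edgeR adjusted p = 3.13e-04), while no other mitosis gene listed here rose at 4 h.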

How the data were processed

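RNA sequencing of 12 corpora lutea (4 control, 4 at 4 h, 4 at 12 h) was analysed. The authors deposited 1 table per cow, with expected counts (estimated counts, not always whole), TPM, FPKM and effective length per gene. The submitters' processing notes name STAR 2.5, RSEM 1.3 and the build ARS-UCD 1.2. The strand setting of the counting is not given in the sources used here. After rounding of the expected counts, a gene was tested where 4 or more of the 12 libraries held 10 or more, by edgeR 4.0.16 (quasi-likelihood, TMM scaling, 3 groups in 1 fit), with Benjamini-Hochberg adjustment over all 14481 genes within each of 3 comparisons and a threshold of 0.05. The SE is the log2 fold change divided by the square root of F. SEs and p-values measure the spread between these cows, and total expected counts of 10263310 to 22600213 per library limit genes of low count. The edgeR, DESeq2 and limma fits were tested on simulated data with planted changes.

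The members, role groups and gene lists were chosen with earlier results of these data known. Values per cow are given for up to 6 called members of each role group with the smallest p and for MKI67, TOP2A, PCNA, MCM2, CCND1, CCND2, CCND3, CDKN1B and CDKN1C, and up to 4 genes per time of each other list are named. The 22 alternatives were RLE scaling, DESeq2 1.42.0 without independent filtering, no count minimum, a minimum of 50, only the 2 groups compared, limma 3.58.1 on log2(TPM + 1) and log2(TPM + 0.1), a spline offset (5 degrees of freedom) for effective transcript length, no mitochondrially encoded genes, 4 h cow 3 and 12 h cow 2 left out together, and each cow left out. Leaving cows out of the summed TPM was added after seeing the data, and the sums were also taken in FPKM and TMM-scaled CPM. CDKN2A, CCNF and MAD2L1, and promoter motifs, were not analysed here. Python 3.11.15, pandas 2.3.3, numpy 2.4.6, matplotlib 3.10.9 and R 4.3.3 were used.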

Additional observations from a re-analysis of the deposited data

Results flagged for a closer look

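Of the 120 sets of 4 cows (40 genes in 3 groups), 12 held a cow whose TPM lay far from the other 3. For independent sets chance gives about 1 in 20. These sets are not independent, since the genes were read in the same 12 cows and often flagged the same cow. The count therefore cannot be set against that rate, and no share over all genes was taken. In the 12 h group the cow was cow 2, the highest, for E2F1 (6.0), CDT1 (4.0), MCM5 (12.5), CCNB1 (8.56), AURKB (10.2), PLK1 (8.1) and NUSAP1 (6.31). Control cow 1 was high for CDK4 (105.5) and CDC20 (11.95), and control cow 3 for CDKN1C (177). In the 4 h group cow 3 was low for CCND2 (5.11) and UBE2C (12.1).

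The effects at 12 h and at 4 h differed by the edgeR test for 15 of the 40 genes, where 46.7% of all 14481 tested genes were called. The shares of the 40, 17.5% higher and 20% lower, were below those of all genes (22.5% and 24.3%). The log2 fold change of 12 h against 4 h was -0.92 for CCND1, -1.06 for CCND3, 0.59 for CDK4, -0.86 for CDK6 and 0.83 for CDKN1B. It was 0.88 for CDT1, 0.57 for MCM3, 0.49 for MCM5, 0.75 for MCM7 and 0.26 for TYMS. It was -0.87 for MKI67, -1.03 for TOP2A, -0.85 for KIF11, -0.83 for CENPF and -0.66 for NUSAP1.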

How the results depend on the processing

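No paired analysis was possible because the labels name different cows in each group, and the numbers used here only follow the order of deposit. On both TPM scales (log2(TPM + 1) and log2(TPM + 0.1)) 0 genes rose and 1 fell at 4 h, and 3 rose from 4 h to 12 h. With the length offset 7 fell at 12 h, where 22.8% of all genes fell, and 3 fell from 4 h to 12 h. The count that fell from 4 h to 12 h was 4 with only the 2 groups compared and 14 without 4 h cow 3 and 12 h cow 2. With 1 cow left out, 5 to 14 genes fell and 3 to 4 rose at 12 h, 3 to 4 fell and 0 to 1 rose at 4 h, and 1 to 9 fell and 6 to 8 rose from 4 h to 12 h. TYMS reversed from 4 h to 12 h on both TPM scales (-0.0204 and -0.0212). The ratio to control of the summed G1 genes at 12 h was 0.842 in FPKM and 0.929 in CPM, and that of the replication genes was 1.0 in CPM. With 1 cow left out, an alternative added after seeing the data, the mitosis ratio was 0.747 to 0.955 at 4 h and 0.446 to 0.632 at 12 h. In the G1 genes it was 0.849 to 0.919 and 0.706 to 0.756, and in the replication genes 0.808 to 0.881 and 0.752 to 0.865. The cause of these shifts was not tested. CDK6, CDC6 and CCND1 at 12 h rest on under 100 counts per library.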
